A study of Homo sapiens with 36 samples.

Results

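GBP1, GBP2, GBP3 and GBP4, genes of the guanylate binding protein family, were followed in A549 cells grown with interleukin-1 beta (IL-1β) and after the cytokine was withdrawn. They are 4 of the 63677 genes in the count tables, taken by symbol, and another 4 genes carry a GBP name (GBP5, GBP6, GBP7 and the pseudogene GBP1P1). The 4 were selected on their values in the comparison of IL-1β against control at each of the 6 time points, so those values are given as a description, without a test. The study's authors also placed GBP1, GBP2 and GBP3, but not GBP4, among the genes they chose on these samples.

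A549 is an established line of human lung adenocarcinoma cells, and all results come from this 1 line, by bulk RNA sequencing. Exposed cells received IL-1β at 1 ng/ml and were collected at days 6, 15 and 21 of exposure, or at days 6, 15 and 30 after withdrawal of IL-1β that had been given for 21 days. Untreated control cells were collected beside them at each of the 6 time points, and each of the 12 groups had 3 replicates. The labels do not say that replicates came from separate cultures, so errors and p-values measure the spread between these samples, which may be technical.

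Guanylate binding proteins are large GTPases of the dynamin superfamily, best known as genes induced by interferon gamma in many cell types, epithelial cells included. They assemble on intracellular bacteria and on the vacuoles around pathogens, where they help to open these compartments and to expose lipopolysaccharide to caspase-4. Interferon gamma acts on promoters through gamma-activated sites (GAS) and through IRF1, which binds interferon-stimulated response elements (ISRE). IL-1β signals through IL1R1 and MyD88 to NF-κB and AP-1, and NF-κB raises IRF1 in many cells. GBP1 and GBP2 carry a C-terminal motif for prenylation that anchors them to membranes, whereas GBP3 and GBP4 lack it and are recruited to coats that GBP1 starts.

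All 8 GBP genes lie on chromosome 1 within 1 cluster. In GRCh37, the build of the deposited counts, GBP3 (ENSG00000117226) spans positions 89472362 to 89488577, GBP1 (ENSG00000117228) 89517565 to 89531043, GBP2 (ENSG00000162645) 89571815 to 89616139 and GBP4 (ENSG00000162654) 89646827 to 89664625, each on the minus strand. Of the 50-base words in their transcripts, 7.76% of those of GBP1, 8.82% of GBP2, 4.78% of GBP3 and 6.52% of GBP4 also occur in another gene, and the authors' counting could leave such reads out or place them on a copy. The words of GBP1, GBP2 and GBP3 were shared first of all with other genes of the family, and those of GBP4 with genes outside it. GBP2 shares 621 exonic bases, 8.6% of its exons, with GBP7 on the same strand.

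The promoters of 3 members are shown because the family is known for interferon elements next to its start sites. They are RefSeq sequences (table build GRCh38.p14) that matched GRCh37 exactly once, as the minus strand of chr1:89530892-89531141 for GBP1, chr1:89488536-89488799 for GBP3 and chr1:89664618-89664875 for GBP4. Each runs 5′ to 3′ over the 250 bases before the start, and in GBP3 and GBP4 goes on for 14 and 8 bases so that a match is shown whole. Capitals mark matches to the motifs described after them.
GBP1: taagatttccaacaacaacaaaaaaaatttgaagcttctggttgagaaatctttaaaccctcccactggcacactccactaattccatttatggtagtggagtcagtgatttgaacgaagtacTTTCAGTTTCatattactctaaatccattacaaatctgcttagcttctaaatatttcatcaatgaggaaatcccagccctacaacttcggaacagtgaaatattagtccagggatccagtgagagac
GBP3: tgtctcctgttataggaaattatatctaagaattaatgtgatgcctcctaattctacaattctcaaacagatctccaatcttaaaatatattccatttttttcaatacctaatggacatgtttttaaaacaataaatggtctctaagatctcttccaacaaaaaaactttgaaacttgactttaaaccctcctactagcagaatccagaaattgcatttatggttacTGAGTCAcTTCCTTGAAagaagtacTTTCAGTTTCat
GBP4: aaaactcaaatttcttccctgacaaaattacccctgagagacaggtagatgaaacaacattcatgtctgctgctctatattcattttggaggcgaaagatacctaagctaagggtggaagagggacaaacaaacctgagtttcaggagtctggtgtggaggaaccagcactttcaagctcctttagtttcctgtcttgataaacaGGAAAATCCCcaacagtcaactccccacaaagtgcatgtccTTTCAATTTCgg

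An ISRE, searched as GAAANNGAAA on both strands, matched in all 3 windows of 300 bases (250 before the start and 50 from it). The length of 300 was chosen after the letters were seen. Within the 250 bases before the start, only GBP1 held a whole ISRE, as did 3.02% of promoter windows of that length. The matches of GBP3 and GBP4 come in only with the longer window, so nothing is read from the count of 3. The windows of GBP6 and GBP7 were searched as well and held no ISRE. GBP1 and GBP3 held the same 10 letters, TTTCAGTTTC on the strand of the gene, at positions -127 to -118 in GBP1 and 3 to 12 in GBP3. Positions count the first base of the RefSeq start as 1, with no position 0. The annotated spans of GBP1 and GBP3 given above reach past these RefSeq starts, to 89531043 and 89488577, and take in both matches. In both genes these letters lay inside a shared run of 19 bases, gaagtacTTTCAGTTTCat. GBP4 held TTTCAATTTC at positions -4 to 6, across the start. GBP3 alone among the 3 also held a GAS (TTCNNNGAA) at -15 to -7 and an AP-1 motif (TGANTCA) at -23 to -17, and GBP4 alone held a κB motif (GGGANNTTCC) at -45 to -36, which is also a match to the looser GGGNNNNNCC. Outside the members, GBP6 held an AP-1 motif at -151 to -145, and GBP7 held only the looser κB form, at -87 to -78. Of 35116 promoter windows of the same length, 3.57% held an ISRE, 7.66% a GAS, 7.71% an AP-1 motif, 1.61% a κB motif and 58.67% its looser form. A match describes letters in the window and shows no binding.

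**Figure D1:**
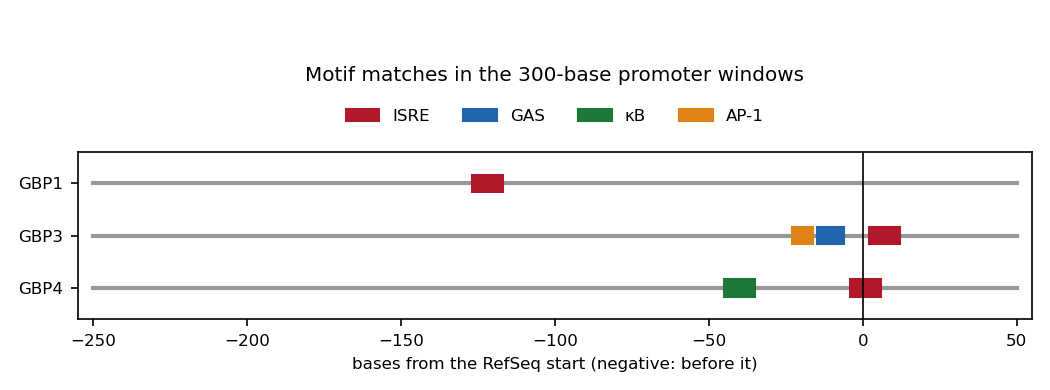
Motif matches in the promoter windows of GBP1, GBP3 and GBP4. The x axis is the distance in bases from the RefSeq start (black line), grey lines are the windows of 300 bases, and coloured boxes are matches to ISRE, GAS, κB and AP-1. An ISRE lies in each of the 3 windows, far before the start in GBP1 and next to it in GBP3 and GBP4.

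Library depth, as the sum of counts on genes, was 9116032 to 23570026. In 25 libraries 5.61% to 7.75% of counts were mitochondrial, whereas 11 libraries, 6 control and 5 exposed, stood apart with 11.8% to 24.6%, 8 of these 11 were collected after withdrawal, and 8 were numbered replicate 2. For the 5 exposed groups that held 1 such library, it was the highest of the 3 for GBP1 and GBP3 in 5 of 5 groups, for GBP2 in 3 and for GBP4 in 1. Control at day 6 and at day 30 after withdrawal also held 1 such library each. There it was the highest for GBP1, GBP2 and GBP3 at both times, and for GBP4 the highest at day 6 and the lowest at day 30. The share of all genes for which this held is not given here. Changes without the 11 libraries are therefore given beside the values of each member. The summed level of 8 markers of A549 and epithelial cells was 10766 to 17785 CPM (counts scaled to a common library total) in control and 4252 to 13063 in exposed libraries, and EPCAM among them had only 4 to 32 counts per library. Of these 8 markers, 5, 6 and 6 were lower at days 6, 15 and 21 and 2, 0 and 0 after withdrawal (edgeR, and at the 0 counts DESeq2 also gave 0, with 5 and 3 at an unadjusted p under 0.05). Of 9 matched markers of other cell types, whose summed level was 4.25 to 11.7 CPM in control and 3.85 to 18.6 in exposed libraries, CD3E was at 0 in all 36 libraries, LUM had at most 1 count and PTPRC at most 3, whereas CD14 had 13 to 237 counts (1.67 to 16.4 CPM), and COL1A1, 1 of the 2 tested, was higher at days 6 and 21. In a fit with the high mitochondrial share as a covariate, GBP1 was 3.16 above control on the log2 scale at day 15, GBP2 2.87 and GBP3 2.71. The part of the epithelial markers in the GBP values was not tested. In bulk RNA, fewer cells with a transcript and less of it per cell cannot be told apart.

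With IL-1β, 3 of the 4 members stood above their controls at all 3 time points of exposure, and after withdrawal they parted. The members were selected on this comparison. The share of all genes whose groups stood apart is not given here, so nothing is read from such counts of members. GBP1 and GBP3 were at 7.03 and 3.35 times control at day 30 after withdrawal, GBP2 at 1.01 times, and GBP4 stayed near 1 CPM in both groups. All 4 members passed the filter on low counts, which left 19180 genes tested, and no group of a member was at the floor of 3 counts in every library. The lowest count of a member was 3, for GBP1 in an untreated library. Levels are in CPM after TMM scaling in the order of replicates 1, 2 and 3, and changes are log2 fold changes from edgeR's fit of all 36 libraries, with their standard errors (SE).

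The count of members past both thresholds of the study's methods (a fold change over 2 and an adjusted p, by Benjamini-Hochberg, under 0.05) comes from the comparison that selected them, so nothing is read from it. GBP1, GBP2 and GBP3 passed as higher at days 6, 15 and 21, against 1.52%, 1.94% and 2.19% of all genes tested. GBP1 and GBP3 passed at days 6, 15 and 30 after withdrawal, against 1.08%, 0.594% and 0.433%. None of the 4 was lower, against 1.25%, 2.3% and 2.06% of genes with IL-1β and 0.725%, 0.36% and 0.464% after withdrawal. Without the 12 libraries numbered replicate 1, edgeR left 0 of 4 past both thresholds at day 6 and at all 3 times after withdrawal and 1 at day 21. Members at an unadjusted p under 0.05 numbered 3, 2, 2 and 2 at the times of a 0 count. All such counts of members for IL-1β against control come from the selecting comparison too, so nothing is read from them. In that fit 107 and 169 genes in all were higher at days 6 and 21 and 18, 7 and 3 after withdrawal, and the log2 fold changes there were 2.30 to 3.41 for GBP1 and 1.53 to 2.51 for GBP3. Without replicate 2 it left 0 at days 15 and 30 after withdrawal, with 2 and 2 at an unadjusted p under 0.05, and 17 and 12 genes in all were then higher. GBP1 was 2.45 and 3.29 above control in that fit, and GBP3 1.82 and 2.06. DESeq2's Wald test gave 3, 3, 3, 2, 2 and 2 members over the 6 time points, the same counts as edgeR. Without the libraries of high mitochondrial share the counts were equal except at day 15 after withdrawal, where 1 member remained.

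GBP1, the member that starts the coat on cytosolic bacteria, was low in untreated cells. At day 6 it measured 1.31, 1.39 and 0.295 CPM in control and 5.93, 6.94 and 4.14 in exposed libraries. At day 15 the control values were 0.532, 0.975 and 0.693 CPM and the exposed ones 6.36, 6.27 and 13.4. At day 21 they were 1.31, 1.03 and 0.637 CPM against 7.39, 8.46 and 8.17. The lowest exposed library exceeded the highest control library at each of these times, and the exposed libraries were closest together at day 21. GBP1 was 2.53 (SE 0.52), 3.54 (SE 0.53) and 3.02 (SE 0.51) above control on the log2 scale at days 6, 15 and 21. At day 6 after withdrawal GBP1 measured 1.03, 1.38 and 0.429 CPM in control and 5.30, 11.5 and 6.72 in exposed libraries, and at day 15 0.649, 1.73 and 1.22 against 5.45, 10.2 and 4.61. At day 30 the values were 0.484, 1.16 and 0.148 CPM against 3.60, 4.42 and 2.67. The exposed mean, 3.56 ± 0.88 CPM (SD, n = 3), was the lowest of the 6, and the groups still did not overlap. The control mean at day 30, 0.597 CPM from 9, 9 and 3 counts, was also the lowest of the 6. The log2 fold changes were 3.12 (SE 0.54), 2.52 (SE 0.52) and 2.81 (SE 0.57), that is 88.1%, 71.3% and 79.6% of the largest value with IL-1β, that of day 15. These shares describe changes against control, not levels of GBP1, whose exposed mean was 8.69 CPM at day 15 with IL-1β. With the 11 libraries of high mitochondrial share left out, the changes were 2.85, 3.09 and 3.03 with IL-1β and 3.80, 2.94 and 3.30 after withdrawal, so that the largest was then at day 6 after withdrawal. At the first 2 times after withdrawal only 1 control library then remained.

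GBP3, which joins coats of GBP1, was well detected in untreated cells too. At day 6 it measured 3.60, 3.65 and 2.25 CPM in control and 11.7, 15.6 and 9.40 in exposed libraries. At day 15 it measured 2.25, 2.38 and 1.78 CPM against 11.9, 13.8 and 27.4, and at day 21 4.67, 3.26 and 2.43 against 14.6, 17.1 and 13.9. No exposed library reached down to a control library, and the 27.4 CPM of exposed replicate 3 at day 15 was the highest of its 36 values. The log2 fold changes were 1.95 (SE 0.40), 3.04 (SE 0.42) and 2.14 (SE 0.40), and that of day 15 was 2.59 without the libraries of high mitochondrial share, of which this replicate is 1. After withdrawal GBP3 measured 4.77, 4.32 and 2.06 CPM against 14.4, 24.8 and 10.9 at day 6, and 2.79, 3.37 and 2.23 against 10.0, 18.0 and 8.34 at day 15. At day 30 it measured 1.88, 3.86 and 1.23 CPM against 7.87, 8.97 and 5.24. As for GBP1, the groups stayed apart at each time while the exposed mean at day 30, 7.36 ± 1.92 CPM (SD, n = 3), was the lowest of the 6. The log2 fold changes after withdrawal were 2.20 (SE 0.41), 2.11 (SE 0.41) and 1.74 (SE 0.42), or 72.2%, 69.3% and 57.3% of the day 15 value. When the 11 libraries were left out, GBP3 was at 2.08, 2.59 and 2.08 with IL-1β and at 2.63, 1.72 and 2.07 after withdrawal.

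GBP2, a prenylated member, was above control with IL-1β and returned to it after withdrawal. At day 6 it measured 3.14, 3.74 and 0.886 CPM in control and 17.7, 17.8 and 7.11 in exposed libraries. At day 15 it measured 1.06, 0.542 and 2.18 CPM against 5.71, 7.38 and 23.6, and at day 21 1.03, 1.39 and 1.39 against 9.34, 7.19 and 11.3. The groups did not overlap, with log2 fold changes of 2.47 (SE 0.52), 3.24 (SE 0.54) and 2.86 (SE 0.53). Exposed replicate 3 at day 15 is a library of high mitochondrial share, and the only one of that kind at this time. Without such libraries the values were 2.85, 2.34 and 3.03, and that of day 15 was then the lowest of the 3. At day 6 after withdrawal GBP2 measured 2.32, 1.30 and 1.72 CPM in control and 2.46, 4.17 and 4.58 in exposed libraries, so that the lowest exposed library was just above the highest control library. At day 15 the values were 1.30, 1.84 and 0.914 CPM against 2.82, 5.53 and 2.52, and at day 30 1.94, 3.09 and 2.31 against 1.76, 3.06 and 2.43. At day 30 the groups overlapped. The log2 fold changes of 1.08 (SE 0.54), 1.41 (SE 0.55) and 0.01 (SE 0.52) were 33.4%, 43.5% and 0.438% of the day 15 value from all libraries, and 1.04, 1.04 and 0.01 when the 11 libraries were left out.

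GBP4, another member recruited to coats, was near 1 CPM in all groups. Its control libraries ranged from 0.588 to 1.73 CPM with a median of 0.971, and its exposed libraries from 0.621 to 1.76 with a median of 1.04. The log2 fold changes were 0.47 (SE 0.32), 0.70 (SE 0.32) and -0.16 (SE 0.31) with IL-1β, and -0.22 (SE 0.33), -0.44 (SE 0.31) and 0.63 (SE 0.32) after withdrawal. With the 11 libraries left out they were 0.60, 0.95 and -0.07, then -0.33, -0.45 and 0.71. The groups overlapped at 5 of the 6 time points. Only at day 30 after withdrawal did all 3 exposed libraries, at 1.76, 1.04 and 1.08 CPM, exceed the controls, at 0.807, 0.772 and 0.885.

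**Figure D2:**
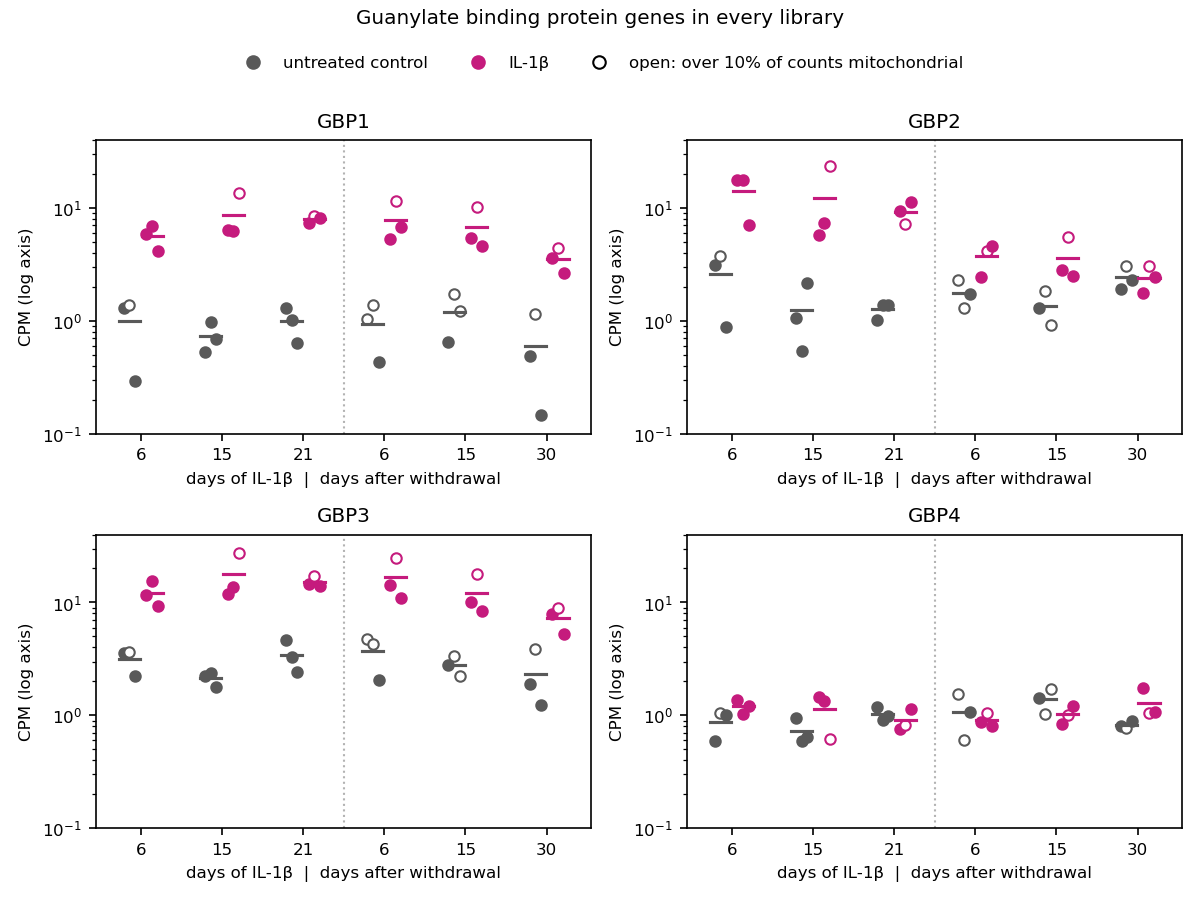
CPM (log axis) of GBP1, GBP2, GBP3 and GBP4 in each of the 36 libraries at the 6 time points, control in grey and IL-1β in magenta, with bars at the mean of 3 libraries. Open circles are the 11 libraries with over 10% of counts on mitochondrial genes, and the dotted line divides exposure from withdrawal. Exposed GBP1 and GBP3 libraries lie above control at every time, GBP2 joins control at day 30 after withdrawal and GBP4 overlaps control at 5 of the 6 times.

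The response at day 30 after withdrawal minus that at day 21 was -2.85 (SE 0.74) on the log2 scale for GBP2, -0.21 (SE 0.81) for GBP1, -0.40 (SE 0.57) for GBP3 and 0.78 (SE 0.44) for GBP4. These differences come from the selecting comparisons and are given without a test. Across the 36 libraries, log2 CPM of GBP1 and GBP3 had a Pearson r of 0.973, GBP1 and GBP2 of 0.751, and GBP2 and GBP3 of 0.771, while GBP4 had -0.004 to 0.085 with the other 3. These libraries share their treatment groups, depth and mitochondrial share, and the values describe likeness only. Over the 25 libraries of low mitochondrial share the first 3 were 0.979, 0.742 and 0.752. Those of GBP4 were higher there than over all 36, at 0.287 with GBP1, 0.231 with GBP2 and 0.356 with GBP3.

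**Figure D3:**
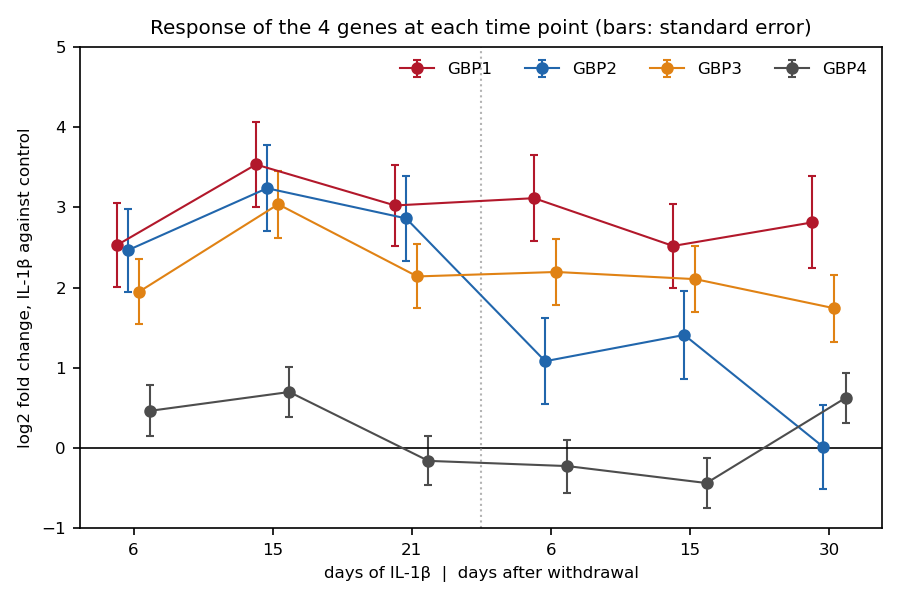
Log2 fold change of IL-1β against control for GBP1, GBP2, GBP3 and GBP4 at the 6 time points (points), with standard errors from edgeR's fit of all 36 libraries (bars). The dotted line divides exposure from withdrawal. GBP1, GBP2 and GBP3 lie close together at day 15 (3.54, 3.24 and 3.04), and at day 30 after withdrawal GBP2 is at 0.01 while GBP1 and GBP3 are at 2.81 and 1.74.

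Per kilobase of exon, the median level in exposed libraries followed the order GBP3 (3.00 CPM per kb), GBP1 (1.04), GBP2 (0.778) and GBP4 (0.170). In control libraries it was GBP3 (0.609), GBP2 (0.215), GBP1 (0.164) and GBP4 (0.158). In exposed libraries GBP3 ranged from 1.22 to 6.40 CPM per kb, GBP1 from 0.437 to 2.20, GBP2 from 0.244 to 3.27 and GBP4 from 0.101 to 0.287. The ranges of neighbours in this order overlapped, as they did in control, where GBP3 ranged from 0.287 to 1.11 and GBP2 from 0.0750 to 0.518. Hence GBP1 and GBP4, side by side at the bottom in untreated cells, stood apart in exposed ones, where the lowest GBP1 library was above the highest GBP4 library. The order of GBP1 over GBP2 did not hold throughout exposure. At day 6 exposed GBP2 was at 2.45, 2.46 and 0.985 CPM per kb, against 0.972, 1.14 and 0.678 for GBP1. The means were 1.69 against 1.42 at day 15, where only replicate 3 had GBP2 above GBP1, and 1.29 against 1.31 at day 21. After withdrawal GBP2 was below GBP1 in every exposed library.

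In untreated cells alone, none of the 4 members passed a test of change over the series. This comparison was not among those that selected the members, but its control libraries were part of them, so it is not independent of the selection. Control cells of the last collection minus those of the first differed by -0.95 (SE 0.62) for GBP1, -0.09 (SE 0.53) for GBP2, -0.52 (SE 0.42) for GBP3 and -0.07 (SE 0.33) for GBP4, and the adjusted p, from edgeR's quasi-likelihood fit across all genes, was 0.999976 for each. The count at an unadjusted p under 0.05 was 0 of 4, and 0 of 4 with DESeq2. Past both thresholds, a stricter measure, were 0 of 4 members and 0.0104% of all genes. The share of all genes at an unadjusted p under 0.05 is not given here. Without the libraries of high mitochondrial share 1 of the 4 had an unadjusted p under 0.05. Each of these 2 collections then held 2 control libraries. From the first to the last, GBP3 went from 3.60 and 2.25 to 1.88 and 1.23 CPM, and GBP1 from 1.31 and 0.295 to 0.484 and 0.148. GBP2 went from 3.14 and 0.886 to 1.94 and 2.31, and GBP4 from 0.588 and 1.00 to 0.807 and 0.885. The part of these control levels in the day 30 fold changes was not tested. A test for any difference among the 6 untreated collections gave an adjusted p = 0.981477 for each member (edgeR quasi-likelihood), and 0.00521% of all genes passed it. With levels near 1 CPM and SEs of 0.33 to 0.62, smaller drifts were not detectable at this depth.

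Of the other 4 genes of the cluster, GBP5 and GBP1P1 had enough counts to be tested. GBP5, a prenylated member known for NLRP3 inflammasome assembly, had log2 fold changes from -0.62 (SE 0.66) at day 6 to 1.19 (SE 0.57) at day 21 and did not pass at any time point. The pseudogene GBP1P1 rose at day 15, from 0, 1 and 1 counts in control to 13, 9 and 10 in exposed libraries (adjusted p = 0.0147, edgeR quasi-likelihood), and did not pass at the other 5 times. With the replicate number as a block it also passed at day 21 (adjusted p = 0.0327, edgeR quasi-likelihood, against 0.0586 without the block). Since 27.9% of its 50-base words also occur in another gene, GBP1 first among them, its counts are uncertain. GBP6 had 0 to 10 counts per library and GBP7 0 to 3.

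The genes that carry the interferon signal to GBPs were described as a list. Of 25 interferon ligands, receptors, kinases, transcription factors and inhibitors, 19 were tested, and 1 was higher at days 6 and 15 and none at the other 4 time points, with medians of 0.27, 0.18, 0.20, 0.15, 0.25 and 0.12 on the log2 scale over the 6 time points. The medians of all genes tested lay between -0.02 and 0.02. At day 21 and after withdrawal, where edgeR and DESeq2 both gave 0 of 19, the counts at an unadjusted p under 0.05 were 6, 2, 2 and 4. At day 21 3 genes had an adjusted p under 0.05, and 1 passed both thresholds without the libraries of high mitochondrial share. The gene higher at days 6 and 15 was IFNGR1, a chain of the interferon gamma receptor, named here after its values were seen: it rose by 1.34 (SE 0.22) at day 6 and 1.17 (SE 0.22) at day 15 (edgeR quasi-likelihood, adjusted p = 0.00015 and 0.000591). IFNG and IFNB1 had at most 1 count in any library, IFNL1 at most 1, and IFNL2 and IFNL3 none. IRF1 is given for its role, also after its values were seen. It had a log2 fold change of 0.91 (SE 0.20) at day 6, with an adjusted p = 0.00496 (edgeR quasi-likelihood) but a fold change under 2, 0.55 (SE 0.20) at day 21 and 0.67 (SE 0.20) at day 30 after withdrawal.

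In the IL-1 and NF-κB list, 5, 4 and 4 of 11 tested genes were higher at days 6, 15 and 21, then 1, 0 and 1 after withdrawal (at the 0, 4 had an unadjusted p under 0.05, and DESeq2 also gave 0), with list medians of 0.86, 0.98, 0.68, 0.22, 0.11 and 0.24. With the replicate block NFKB2 also passed at day 30 after withdrawal, by 1.08 (adjusted p = 0.0169, edgeR quasi-likelihood). At day 21 TNFAIP3, a feedback inhibitor of NF-κB, rose by 3.21 (SE 0.22, adjusted p = 4.73e-11), NFKBIA, which encodes IκBα, by 1.89 (SE 0.20, adjusted p = 1.14e-07), NFKBIZ by 1.84 (SE 0.24, adjusted p = 4.78e-06) and NFKB2 by 1.20 (SE 0.28, adjusted p = 0.00489, all edgeR quasi-likelihood). The response of TNFAIP3 was smaller at day 30 after withdrawal than at day 21 by 2.11 (SE 0.30) and that of NFKBIZ by 1.97 (SE 0.34), both past the thresholds, as were 0.626% of all genes in that test. Their adjusted p values were 0.000135 and 0.00181 (edgeR quasi-likelihood). No other of the 11 genes passed in that test, and the list median was -0.29. The members had -2.85 (GBP2), -0.21 (GBP1), -0.40 (GBP3) and 0.78 (GBP4), from the same control and exposed libraries. A link between these values and the list was not tested.

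Of 25 genes known as interferon gamma targets, 19 were tested, and 3, 2 and 2 were higher at days 6, 15 and 21 and 2, 1 and 2 after withdrawal. The list medians were 0.63, 0.46, 0.49, 0.46, 0.59 and 0.57. With the replicate block APOL1 also passed at day 30 after withdrawal, by 1.00 (adjusted p = 0.00459, edgeR quasi-likelihood). At day 21 ICAM1, an adhesion molecule that NF-κB also drives, rose by 2.45 (SE 0.57, adjusted p = 0.00515), and CD274, which encodes PD-L1, by 1.92 (SE 0.48, adjusted p = 0.0096, both edgeR quasi-likelihood). At day 30 after withdrawal APOL6 was higher by 1.44 (SE 0.25, adjusted p = 0.00133) and PSMB9, an immunoproteasome subunit, by 1.14 (SE 0.19, adjusted p = 0.00114, both edgeR quasi-likelihood). CXCL9 was at 0 counts in all libraries, and CXCL10, CXCL11 and IDO1, interferon gamma targets in many cells, had at most 2.

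Of 20 type I interferon targets, 14 were tested. In the order of the 6 time points 0, 2, 2, 2, 0 and 2 were higher by edgeR, and where edgeR gave 0, DESeq2 gave 1 and 1, with 2 and 5 at an unadjusted p under 0.05. The medians were 0.25, 0.58, 0.18, 0.42, 0.81 and 0.67. At day 21 OASL rose by 2.21 (SE 0.38, adjusted p = 0.000175) and CMPK2 by 1.01 (SE 0.31, adjusted p = 0.0497), and at day 30 after withdrawal CMPK2 by 1.82 (SE 0.34, adjusted p = 0.00411) and OAS1, a sensor of double-stranded RNA, by 1.27 (SE 0.19, adjusted p = 0.000291, all edgeR quasi-likelihood).

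Among 6 related large GTPases (MX1, MX2, IRGM and the atlastins), 5 were tested, and 1 was higher, at day 21 only, by edgeR and by DESeq2, with 1 or 2 at an unadjusted p under 0.05 at the other times. It was the atlastin ATL1, an endoplasmic reticulum GTPase (1.04, SE 0.25, adjusted p = 0.0077, edgeR quasi-likelihood), with list medians from 0.13 to 0.47 over the 6 time points. Of 15 effector and prenylation partners (inflammasome genes, the prenylation enzymes, and PIM1 and SFN, which hold GBP1 inactive), 11 were tested. None was higher by edgeR, and 1 was at day 15 by DESeq2, with 0 to 3 at an unadjusted p under 0.05. PIM1, a kinase that restrains GBP1, was lower at days 15 and 21, with -1.34 (SE 0.38) and -1.22 (SE 0.38) on the log2 scale (adjusted p = 0.0286 and 0.0498, edgeR quasi-likelihood). The list medians ran from 0.06 to 0.19. Each of the ATL1 and PIM1 calls at day 21 was lost without replicate 1 and without replicate 3, and with the high mitochondrial share as a covariate.

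**Figure D4:**
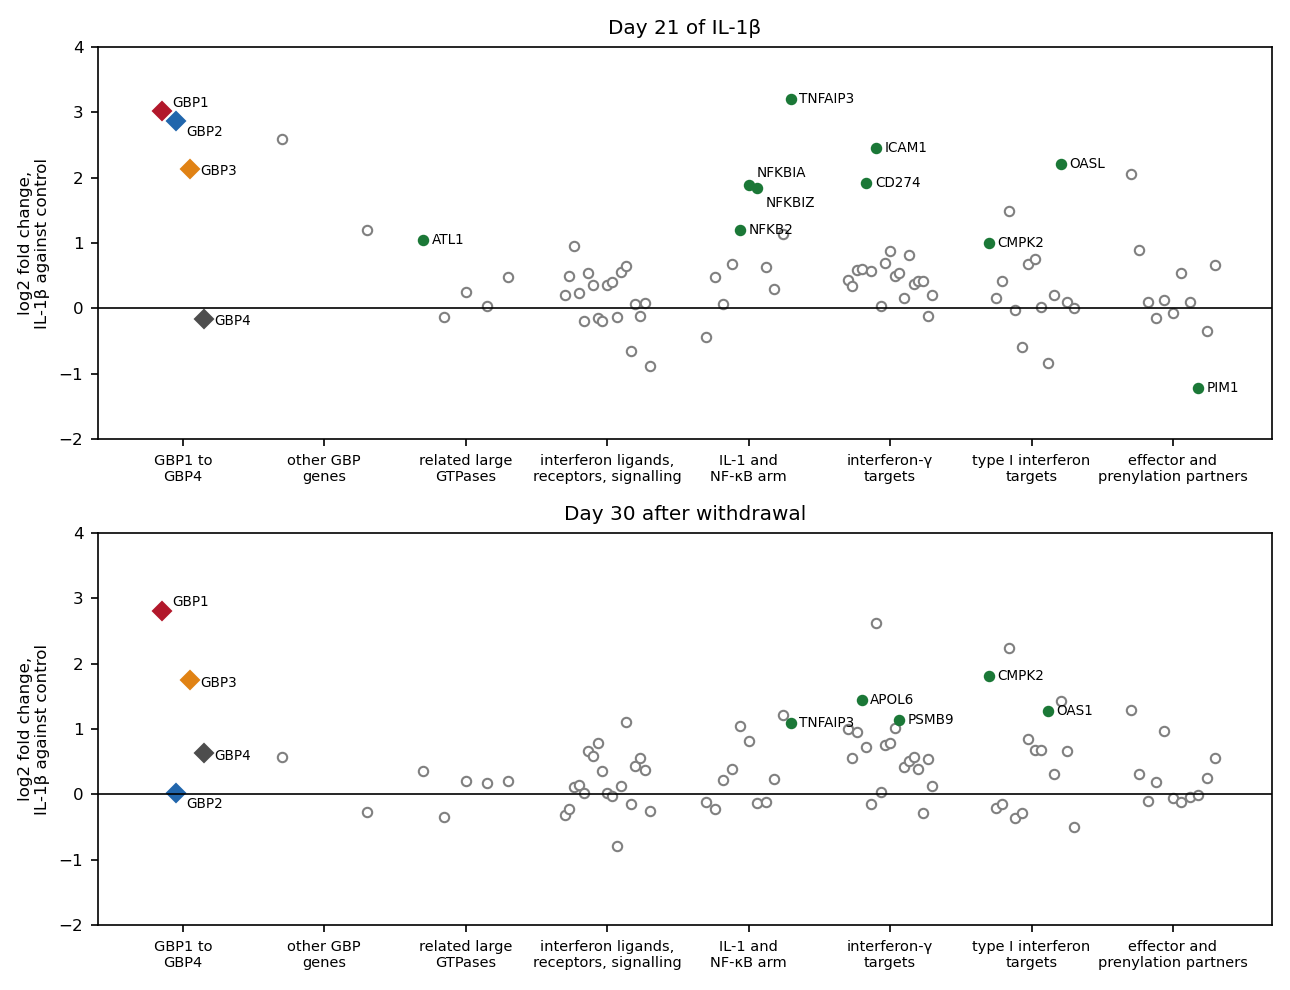
Log2 fold change of IL-1β against control at day 21 (upper panel) and at day 30 after withdrawal (lower panel) for GBP1 to GBP4 (diamonds) and the tested genes of each list (circles). Filled green circles passed both thresholds and are named, and open circles did not pass. At day 21 GBP1, GBP2 and GBP3 lie at 3.02, 2.86 and 2.14, TNFAIP3 lies at 3.21, and the interferon ligands, receptors and signalling genes have no filled circle.

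The genes whose levels most resembled each member over the 36 libraries were chosen among 14366 genes by Pearson's r of log2 CPM, with the 4 members themselves left out. For GBP1 they were VEGFC (0.958), DSE (0.957) and AOX1 (0.953), and for GBP3 AOX1 (0.963), DSE (0.956) and AMPD3 (0.954). Thus GBP1 and GBP3 shared AOX1 and DSE, which lie on chromosomes 2 and 6. For GBP2 they were SLFN5 (0.946), RAET1E (0.944) and TANC2 (0.932), none of them among those of GBP1 or GBP3. GBP4 had no close counterpart: its best values were 0.717 for BCRP2, 0.546 for PPP1R26-AS1 and 0.523 for USHBP1, and these fell to 0.652, 0.383 and 0.344 over the 25 libraries of low mitochondrial share. The libraries share treatment, depth and mitochondrial share, and r is given without a test.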

How the data were processed

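RNA from A549 cells was sequenced in 36 libraries, 3 for each of 12 groups. The authors demultiplexed single-end reads with bcl2fastq 2.17, aligned them to GRCh37 with TopHat2 2.0.14 and Bowtie2 2.2.5 and deposited raw counts per Ensembl gene from HTSeq 0.6.1, without normalization (versions per the submitters' processing notes). The strand setting and annotation release are not given in the sources used here. HTSeq assigned 8.48% to 18.6% of a library's reads to no feature and left 2.62% to 4.18% ambiguous. Its 5 summary lines stayed out of library sizes and tests.

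Groups and replicate numbers came from the labels. Genes were matched to GENCODE v44lift37 by identifier, and 39471 of 63677 had a count. edgeR 4.0.16 (R 4.3.3) filterByExpr left 19180, which were scaled by TMM and fitted with the quasi-likelihood model in all 36 libraries (12 group terms, 24 residual degrees of freedom). Benjamini-Hochberg adjustment ran over all genes tested in each comparison. SE is the log2 fold change over the root of the F statistic. CPM used the TMM scaling, and log2 CPM for correlations a prior count of 2. Exon length, which sets CPM per kb, was the union of annotated exons. The fit was tested on simulated counts of 18852 genes, of which 200 were changed at day 21. It called 176 of the 200, with 13 false calls, and made 0 calls in a comparison left unchanged.

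The members, lists, thresholds and alternatives were chosen with earlier results of these data known, and the GBP lists hold genes the study picked on these samples. From each list, genes past both thresholds at day 21 or at day 30 after withdrawal were named, at most 6, with any whose response differed between these times, at most 3. All 4 members were described, and, for each, the 3 most correlated genes other than members with a mean of at least 1 CPM. Motifs were searched in 300 bases rather than the 250 before the start, a choice made after the letters were seen. DDX58 was found under its symbol RIGI, and PECAM1 was not matched. Alternatives were edgeR's fit with its relative log expression scaling, the kind DESeq2 uses for size factors, and the Wald test of DESeq2 1.42.0. Others were total counts, no filter, at least 10 counts in every sample, the likelihood ratio test and separate fits of each time point. The rest were the replicate block, each replicate left out, the libraries with over 10% mitochondrial counts left out or as a covariate, and other thresholds. Protein sequences and the GBP2 promoter were not used here. Some listed genes are not reported here by name.

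Replicate numbers were taken to pair libraries where all 3 pairs of a time point correlated above 0.1. The correlation of the deviations of same-numbered control and exposed libraries from their group means, over 18 pairs, averaged 0.279 and ranged from -0.336 to 0.718, and 14 of the 18 exceeded 0.1, but all 3 of a time point did so only at day 21 and on the last day of withdrawal. The fit without the block was kept as the main one.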

Additional observations from a re-analysis of the deposited data

Results flagged for a closer look

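Among the genes of the pathway and marker lists, 5 had a response to IL-1β that differed between day 30 after withdrawal and day 21 by a test of the difference itself (edgeR quasi-likelihood). The response of NFKBIZ differed by -1.97 on the log2 scale (SE 0.34, adjusted p = 0.00181). That of TNFAIP3 differed by -2.11 (SE 0.30, adjusted p = 0.000135). That of OAS1 differed by 2.11 (SE 0.27, adjusted p = 3.68e-05), since OAS1 was lower than control at day 21, by -0.84 (SE 0.19), and higher at day 30 after withdrawal, by 1.27 (SE 0.19). Of the marker lists, the response of AKR1B10, a marker of A549 cells, differed by 1.68 (SE 0.24, adjusted p = 0.000143), and that of COL1A1, a marker of fibroblasts, by -2.22 (SE 0.41, adjusted p = 0.00406). No group was large enough, at 3 libraries, for a search for outlying samples.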

How the results depend on the processing

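Of 294 alternative values of the members' log2 fold changes, 288 moved by less than the spread between replicates, 6 moved by more, and none of the values past both thresholds changed sign. GBP1 at day 6 after withdrawal was 3.80 without the libraries of high mitochondrial share. With each replicate left out in turn, GBP2 at day 6 after withdrawal ran from 0.82 to 1.52, GBP3 at day 15 from 2.47 to 3.32, GBP4 at day 21 from -0.41 to 0.081 and GBP4 at day 30 after withdrawal from 0.32 to 0.80. The number of members past both thresholds was 1 at each of the 6 time points with at least 10 counts required in every sample, where GBP3 alone was still tested. Separate fits of each time point gave 0 at the 3 times after withdrawal, with 3, 3 and 2 members at an unadjusted p under 0.05, and in those fits 0 of all genes tested were higher, while GBP1 was at 3.10, 2.53 and 2.78 on the log2 scale. The unadjusted counts come from the selecting comparison, so nothing is read from them. Without the libraries of high mitochondrial share the number of members past both thresholds was 1 at day 15 after withdrawal, and an adjusted p under 0.01 gave 1 at day 30. With each replicate left out it ran from 0 to 3 at day 6, was 3 throughout at day 15, and ran from 1 to 3 at day 21 and from 0 to 2 at each time after withdrawal. The cause was not tested.

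For the other lists at day 21, the number of related large GTPases past both thresholds fell to 0 with the mitochondrial covariate and ran from 0 to 1 with a replicate left out. That of the interferon ligands, receptors and signalling genes ran from 0 to 1, was 1 with the covariate or with the libraries of high mitochondrial share left out, and was 3 at an adjusted p under 0.05 alone. That of interferon gamma targets was 0 with at least 10 counts in every sample and 1 with any replicate left out. That of type I interferon targets was 1 with total counts, without a filter and at an adjusted p under 0.01, 0 with at least 10 counts, and 1 to 2 with a replicate left out. That of effector and prenylation partners was 0 with total counts, without a filter, with at least 10 counts, with the covariate and at an adjusted p under 0.01, and 0 to 1 with a replicate left out. That of the other GBP genes was 1 with total counts, DESeq2's Wald test, the likelihood ratio test, separate fits, the mitochondrial covariate and the fit that left out the libraries of high mitochondrial share. In untreated cells the difference of GBP2 ran from -0.47 to 0.25 with a replicate left out and that of GBP4 ran from -0.27 to 0.085. With the libraries of high mitochondrial share left out, they were 0.11 and 0.079. These were not past the threshold.

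Of the 36 libraries, 30 were most like the library of their own number in the other group of their time point. With the replicate block, the number of other GBP genes past both thresholds at day 21 was 1 rather than 0, and the numbers of members past both thresholds were 3, 3, 3, 2, 2 and 2, as without it. Of the listed genes at day 21 and at day 30 after withdrawal, GBP1P1 at the first and APOL1 and NFKB2 at the second passed under the block and not without it, and the call changed for no other.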
